A study of Drosophila melanogaster with 6 samples.

Results

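The muscle contractile genes *Mhc*, *Mlc1*, *Mlc2*, *up*, *wupA*, *Tm1*, *Tm2*, *Act57B* and *Act87E* were looked up by name on the arrays, and 5 of the 9 could be measured. *Mlc1*, *Mlc2*, *up*, *Tm2* and *Act87E* each had 1 probe set that the gene table of the array assigned to that gene alone. *Mhc*, *wupA*, *Tm1* and *Act57B* had no probe set that the table assigned to the gene alone and were not analysed here. All 5 measured genes lay above the expression minimum of 6 (log2 scale) in wild type and so were among the 7696 genes compared. The arrays held total RNA of dissected testes from *Pof* mutant males (*y1 w67c23; PofD119/PofD119*) and from *y1 w67c23* males, which served as wild type, so both genotypes carried the same X chromosome markers. Each genotype had 3 biological replicates of 60 testes, all from males 0 to 24 h old. *Pof* encodes a protein that binds chromosome 4, and the question here is whether the muscle transcripts in these samples differed when it was lost. None of the measured muscle genes lies on that chromosome. *Mlc1*, *Mlc2*, *Tm2* and *Act87E* lie on arm 3R and *up* on the X chromosome.

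Muscle shortens when myosin motors of the thick filament pull on actin thin filaments. A myosin molecule carries an essential light chain, the product of *Mlc1*, and a regulatory light chain, the product of *Mlc2*. On the thin filament, tropomyosin (*Tm2*) and troponin, whose T subunit is encoded by *up*, keep myosin off the actin until calcium rises, and *Act87E* encodes a muscle actin. The *Drosophila* testis is wrapped in a sheath of muscle and pigment cells, and the accessory glands, the ejaculatory duct and the ejaculatory bulb have muscle coats of their own.

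The 5 genes are used in muscles throughout the body, and transcripts of other male tissues were abundant in these samples, so the muscle transcripts cannot be assigned to the sheath. All 12 listed accessory gland genes and all 5 listed genes of the ejaculatory duct and bulb lay above the minimum, with *Acp98AB*, a seminal fluid protein gene, at a wild type mean of 14.22. Of the listed sarcomere genes, *TpnC4*, *fln* and *Act88F*, known from flight muscle and named after their values were seen, had low values. Among the same 25 listed genes, 16 passed the minimum, such as *Zasp66* and *Mf* at wild type means of 9.31 and 9.25. Whether flight muscle was present in the samples was not tested. *TpnC4*, a troponin C, was between 4.25 and 4.78 on the 6 arrays, *fln*, which encodes flightin, was between 4.68 and 5.58, and the flight muscle actin gene *Act88F* was below 6 on every array but wild type replicate 2 (6.63). *Sox100B*, a marker of the pigment cells of the sheath, had values between 5.18 and 5.51. Of 12 listed regulators of muscle formation, 8 had a probe set assigned to the gene alone and 0 passed the minimum, with single values between 4.05 and 6.35. In such bulk RNA, fewer muscle cells and less muscle RNA per cell cannot be told apart.

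The deposited values had array medians between 5.78 and 5.88. *Pof* itself, the mutated gene, averaged 12.98 ± 0.085 (SD, n = 3) on the wild type arrays. On the mutant arrays it averaged 10.39 ± 0.10 (SD, n = 3). Constants between -0.017 and 0.15 were added to the mutant arrays to match the wild type mean, and changes are given with them unless stated. The first principal component, with 58.9% of the variance, set both replicate 2 arrays against the remaining 4.

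None of the 5 muscle contractile genes passed the test between *Pof* mutant and wild type testes. In limma with adjustment over all 7696 genes, 0 were higher and 0 were lower (adjusted p between 0.321 and 1.00), against 2.47% of all genes higher and 2.22% lower, and 0 had an unadjusted p under 0.05, against 18.5% of all genes. With the replicate number as a block, again 0 were higher and 0 lower, against 5.82% and 5.68% of all genes, and 2 of 5 had an unadjusted p under 0.05, against 31.1% of all genes. The median log2 change of the 5 genes was 1.5e-04, and that of all genes was 0.024. Only *Mlc2* had groups that did not overlap, with every mutant array below every wild type array. Over all genes, 11.2% lay below in this way and 13.4% above.

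**Figure D1:**
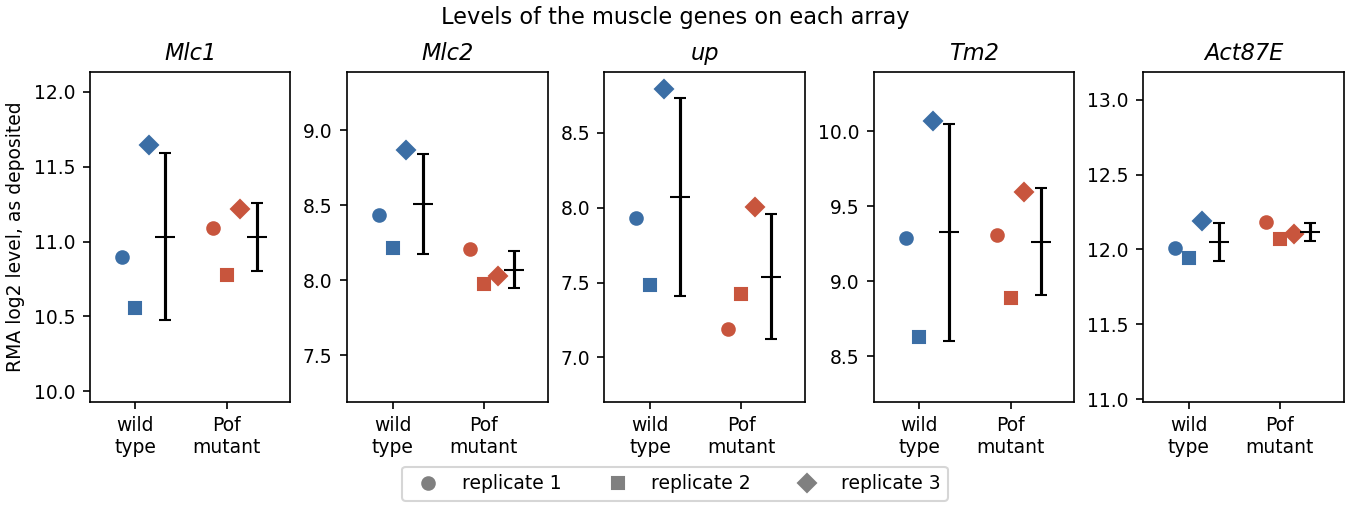
RMA log2 levels, as deposited, of the 5 muscle contractile genes in wild type (blue) and *Pof* mutant (red) testes, 1 panel per gene, each with an axis of the same length. Symbols mark the replicate number, and black bars give the mean and SD of 3 arrays. Wild type replicate 3 has the highest and wild type replicate 2 the lowest wild type value in every panel.

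Neither light chain gene of the thick filament passed the test. *Mlc1* had values of 10.90, 10.55 and 11.64 in wild type replicates 1, 2 and 3 and of 11.09, 10.78 and 11.22 in the mutant replicates. All 3 mutant values thus fell within the wild type range. The log2 change of *Mlc1* was 0.063 (standard error 0.29, 95% confidence interval -0.63 to 0.76, limma adjusted p = 0.933), and -0.0017 without the constant, so it has no settled sign. *Mlc2* had values of 8.43, 8.22 and 8.87 in wild type and of 8.21, 7.97 and 8.03 in mutant testes. The highest mutant value and the lowest wild type value almost touched, although the groups did not overlap. The log2 change of *Mlc2* was -0.37 (standard error 0.17, limma adjusted p = 0.321). This is 77.3% of wild type, with a 95% confidence interval from 57.9% to 103%. It was below 0 in each of the 3 pairs of arrays with the same replicate number, at -0.24, -0.18 and -0.70. In the block fit the interval of *Mlc2* was -0.69 to -0.054, and the adjusted p was 0.120.

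*Act87E*, the muscle actin gene, had the smallest SD of the 5 in both genotypes. Wild type arrays had 12.01, 11.94 and 12.19 and mutant arrays 12.18, 12.07 and 12.10, so the groups overlapped. The log2 change of *Act87E* was 0.14 (standard error 0.099, limma adjusted p = 0.544). On the linear scale its interval ran from 93.1% to 130% of wild type. Actin genes are close copies of each other, and the suffix of this probe set (_s_at) is one that Affymetrix uses where probes can match further transcripts, so signal from other actin genes in this value was not tested. The cytoplasmic actin genes *Act5C* and *Act42A* were not analysed here. Of the 6 listed non-muscle and testis relatives of the members, 1 was measured, *Mlc-c*, the essential light chain gene of non-muscle myosin. It had a wild type mean of 11.25, a range of 0.17 among the wild type arrays and a log2 change of 0.032 ± 0.085 (standard error), at a limma adjusted p of 0.886.

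The genes of the thin filament switch, *Tm2* and *up*, had the largest SDs of the 5 in both genotypes. *Tm2* had values of 9.29, 8.62 and 10.07 in wild type and of 9.31, 8.89 and 9.59 in mutant testes. The mutant values lay inside the wild type range, and replicate 2 was lowest in both genotypes. The log2 change of *Tm2* was 1.5e-04 (standard error 0.38, limma adjusted p = 1.00) and -0.065 without the constant, so no direction is given, and its interval ran from -0.92 to 0.92. *up* had values of 7.93, 7.49 and 8.79 in wild type and of 7.19, 7.42 and 8.005 in mutant testes. The groups overlapped, with mutant replicate 3 above 2 of the wild type arrays. The log2 change of *up* was -0.47 (standard error 0.38, limma adjusted p = 0.599). This is 72.4% of wild type, with a 95% confidence interval from 38.2% to 137%. In the block fit the interval of *up* was -0.89 to -0.041, and the adjusted p was 0.137. Its pairs gave -0.76, 5.2e-04 and -0.64, so the replicate 2 arrays gave almost equal levels and the other pairs did not. The probe set of *Tm2* also carries the _s_at suffix, and that of *up* does not.

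**Figure D2:**
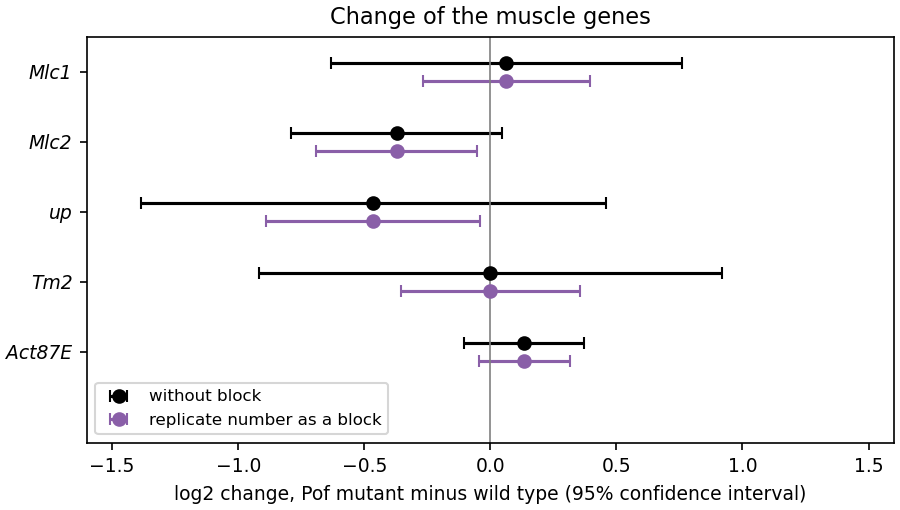
Log2 change of each muscle contractile gene between *Pof* mutant and wild type testes (x axis), with its 95% confidence interval over 6 arrays from limma. Black points are the fit without the replicate number and purple points the block fit. The intervals of *Mlc2* and *up* reach 0 without the block and lie below it with the block, while the adjusted p-values of both stay above 0.05.

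For all 5 muscle genes, the range among the wild type arrays was larger than the size of the change between genotypes. In wild type testes, replicate 3 was highest and replicate 2 lowest for all 5 muscle genes, while among all genes 28.5% were highest on replicate 3 and 27.8% lowest on replicate 2. In the mutant, after the constant, replicate 3 was highest for 4 of 5 genes and replicate 2 lowest for 4 of 5, with *Mlc2* highest and *up* lowest on replicate 1. Over all genes these shares were 24.1% and 18.5%. From wild type replicate 2 to wild type replicate 3 the level of *Tm2* differed 2.73-fold, that of *up* 2.47-fold, that of *Mlc1* 2.13-fold, that of *Mlc2* 1.58-fold and that of *Act87E* 1.19-fold. Between the mutant arrays with the same numbers, the differences ran the same way and were smaller, from 1.73-fold for *Tm2* to 1.08-fold for *Act87E*. The median difference of the 5 genes between replicates 3 and 2 was 1.09 in wild type and 0.53 in the mutant on the log2 scale. Over all genes it was -0.15 and -0.10, so the muscle genes stood opposite to the bulk of the genes on these arrays. Both differences were above 0 for 5 of 5 muscle genes and for 22.97% of all genes. The SD among the wild type arrays was larger than that of 94.8% of all genes for *Mlc1*, 95.7% for *up*, 96.1% for *Tm2* and 89.6% for *Mlc2*, and larger than that of 40.6% for *Act87E*. Among the mutant arrays, the SD of *Mlc2* was larger than that of only 24.5% of genes. The median change of the 5 genes therefore moved with the arrays included, from -0.34 without wild type replicate 2 to 0.20 without wild type replicate 3. Without both replicate 2 arrays it was -0.15, and again 0 genes were higher and 0 lower.

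**Figure D3:**
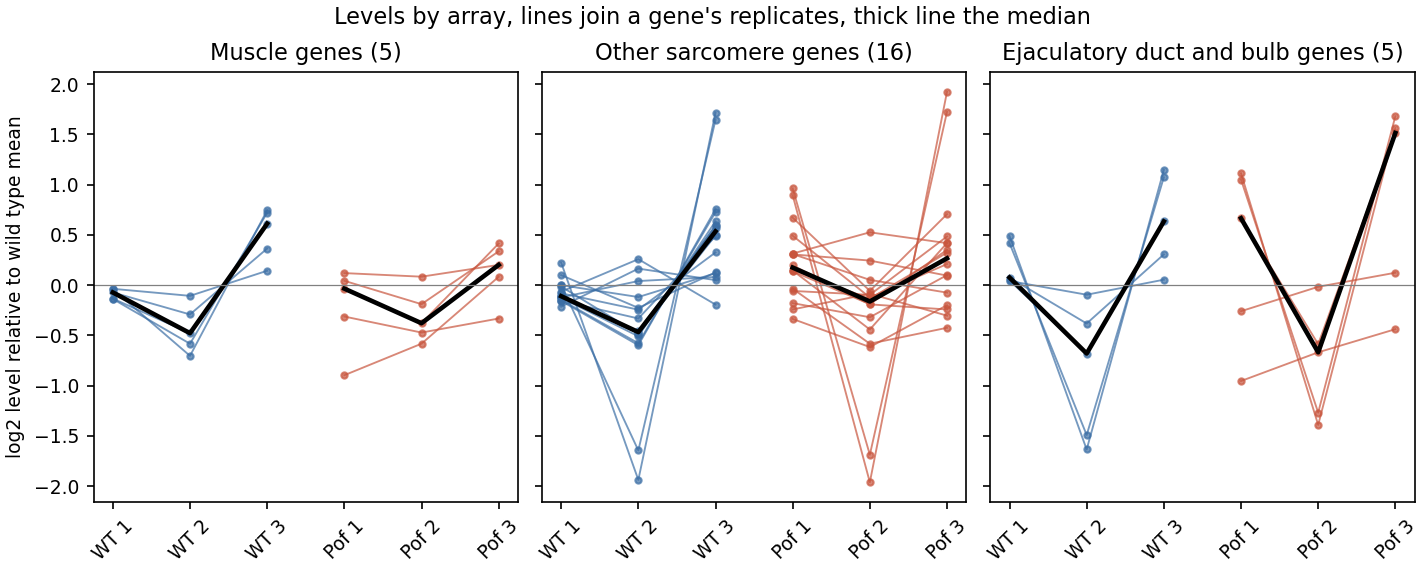
Log2 level of each gene on each array relative to its wild type mean (y axis, with the constant), for the 5 muscle contractile genes, 16 further sarcomere genes and 5 genes of the ejaculatory duct and bulb. Thin lines join the replicates of a genotype for 1 gene, and thick lines join the medians. The medians of all 3 groups are lowest on replicate 2 and highest on replicate 3 in both genotypes.

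Differences between members within an array remove only a shift that is of equal size in both genes. On the log2 scale, *Mlc1* minus *Mlc2* was 2.46, 2.34 and 2.77 in wild type replicates 1, 2 and 3, and 2.88, 2.81 and 3.19 in the mutant replicates. These are differences between probe sets of unequal sensitivity, so only their shift between genotypes is read. The shift was 0.44, and the groups did not overlap (exact permutation test over 3 against 3 arrays, two-sided, p = 0.10, the smallest possible). *Mlc1* minus *up* shifted by 0.53, and *Mlc2* minus *Act87E* and *up* minus *Tm2* shifted by -0.51 and -0.47, all likewise without overlap. Of the 10 pairs of the 5 genes, 4 did not overlap (40%), against 31.9% of all pairs of kept genes, a share near the background. Adjusted over the 10 pairs, the exact permutation p-values were 0.25 or more. *Mlc1* minus *Tm2* shifted by 0.063, less than its range among the wild type arrays (0.36). The wild type range was widest for *Tm2* minus *Act87E* (1.20) and *up* minus *Act87E* (1.05), so replicate differences remained in these pairs. Their shifts were -0.13 and -0.60, both with overlap.

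Of 25 other listed sarcomere genes, 22 had a probe set assigned to the gene alone and 16 passed the minimum. In limma 0 of the 16 passed the test between the genotypes, again against 2.47% of all genes higher and 2.22% lower. At an unadjusted p under 0.05 there was 1, against 18.5% of all genes, and the fit with the block gave the same 3 counts (0 higher, 0 lower, and 1 unadjusted against 31.1% of all genes). The 16 changes had a median of 0.10, with 11 of 16 above 0, against 4198 of all 7696 genes. *Mlp60A*, which encodes a muscle LIM protein, had the highest wild type level among them (10.67) and a log2 change of 0.11 (standard error 0.26, limma adjusted p = 0.867). *Msp300*, a large spectrin-repeat protein that anchors muscle nuclei, followed at 9.40 with 0.096 (standard error 0.16, adjusted p = 0.804). Replicate 2 was lowest among the wild type arrays for 13 of the 16 and lowest among the mutant arrays for 11. Replicate 3 was highest for 14 and for 9. *Msp300* and *sls*, which encodes a titin-like protein and was named after its values were seen, were highest on replicate 2 in wild type and lower on replicate 3 than on replicate 2 in both genotypes.

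Among the 16, the widest differences between replicates 3 and 2 were those of *Act79B*, an actin gene of tubular muscle, and *TpnC41C*, a troponin C gene, both named after their values were seen. *Act79B* was 12.6-fold higher on replicate 3 than on replicate 2 in wild type and 10.6-fold higher in the mutant. Its deposited replicate 2 levels were 6.20 in wild type and 6.39 in the mutant, close to the minimum of 6, so these folds are uncertain. *TpnC41C* had deposited levels of 6.46, 4.81 and 8.10 in wild type and 7.37, 4.43 and 8.23 in the mutant, with both replicate 2 values below the minimum, so no fold is given. The log2 change of *Act79B* was 0.33 (standard error 1.16) with an interval from -2.47 to 3.13, and that of *TpnC41C* was 0.29 (standard error 1.18) with an interval from -2.55 to 3.12. *Prm*, which encodes paramyosin of the thick filament core, showed 2.21-fold and 1.34-fold.

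**Figure D4:**
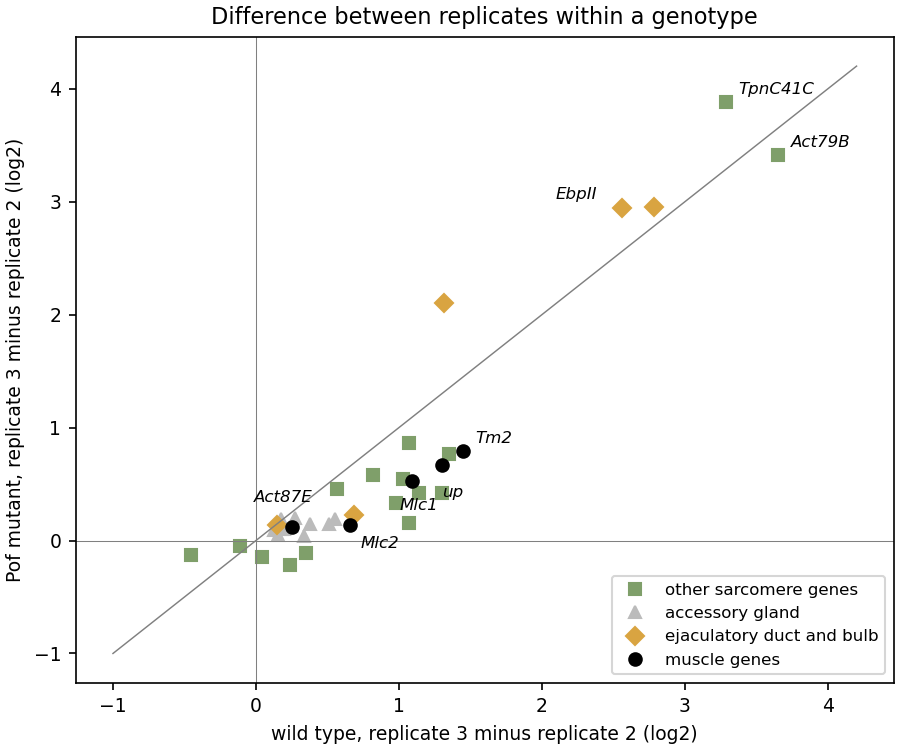
Log2 level on replicate 3 minus that on replicate 2 in wild type (x axis) and in *Pof* mutant testes (y axis), 1 point per gene, with the diagonal of equal values. The muscle contractile genes (black) lie to the right of and above 0, at up to 1.45 and 0.79, the accessory gland genes (grey) reach 0.55 and 0.20, and *Act79B*, *TpnC41C* and *EbpII* lie far above them.

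Of 7 listed genes of calcium handling in muscle, 5 passed the minimum, 1 was higher in the mutant and 0 were lower. Over all genes, 2.47% were higher and 2.22% lower. *Ca-alpha1D*, a subunit of a voltage-gated calcium channel of muscle and nerve, rose, with a log2 change of 0.58 (standard error 0.11, limma adjusted p = 0.037). Its range among the wild type arrays was 0.20. The call of *Ca-alpha1D* was lost without the constant (adjusted p = 0.111), with the constant on the linear scale (adjusted p = 0.073), with no minimum (adjusted p = 0.070) and without any array other than wild type replicate 2, and a minimum of 7 left the gene out (wild type mean 6.99). *SERCA*, the calcium pump of the sarcoplasmic reticulum, was averaged over 3 probe sets. It had a log2 change of 0.044 at a limma adjusted p of 0.956. In wild type it was 2.03-fold higher on replicate 3 than on replicate 2. Its probe sets had deposited means of 10.37, 7.32 and 6.69 in wild type. In the mutant these were 10.11, 7.50 and 6.71, so they did not all run the same way. *Scp2*, which encodes a sarcoplasmic calcium-binding protein, had deposited levels of 10.58, 4.94 and 10.59 in wild type and 9.31, 5.48 and 8.64 in the mutant. Both replicate 2 values were below the minimum of 6, so no fold is given against them. The fit gave *Scp2* a log2 change of -0.83 (standard error 1.74) at an adjusted p of 0.852.

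Adhesion genes that tie muscle to its matrix did not pass the test. 8 of 10 listed genes were kept, with 0 higher and 0 lower in limma, 3 at an unadjusted p under 0.05 (37.5%, against 18.5% of all genes) and a median change of 0.019. *stck*, an adaptor at integrin junctions, was at 0.31 (standard error 0.12) at an adjusted p of 0.250, and *rhea*, which encodes talin, was at -0.090 (standard error 0.18) with an adjusted p of 0.842. Basement membrane genes had changes below 0 in 6 of 6 cases, against 3498 of all 7696 genes. Of the 6, 1 passed as lower, against 2.22% of all genes. *vkg*, the collagen IV alpha 2 chain, had a log2 change of -1.06 (standard error 0.20, limma adjusted p = 0.038), which is 47.9% of wild type. The call of *vkg* was lost without both replicate 2 arrays and without any single array other than *Pof* mutant replicate 3. *Col4a1*, its partner chain, was at -0.80 (standard error 0.19). Its adjusted p was 0.074, and 0.036 in the block fit. Between wild type replicates 3 and 2, *vkg* differed by -0.070 and *Col4a1* by 0.066 on the log2 scale, and between the mutant replicates by 0.39 and 0.42. The fat body also makes collagen IV, and 3 of its 4 measured marker genes were lower in the mutant, against 2.22% of all genes. *Fbp2*, *Fbp1*, which encodes a storage protein receptor, and *Lsp2*, which encodes a storage protein, had log2 changes of -2.02, -1.597 and -1.56 (limma adjusted p = 0.011, 0.033 and 0.025). *Fbp2* and *Fbp1* were below the minimum of 6 on every mutant array and were kept through their wild type levels, so the sizes of their changes are not measured on both sides. The summed level of the 4 genes (log2 of the summed linear values) was 11.16 to 11.55 in wild type and 10.99 to 11.09 in the mutant. Most of this sum was *apolpp*, at 10.80 to 10.99 in wild type and 10.86 to 10.94 in the mutant, so it says little about the other genes. The part of fat body RNA in the collagen values was not tested.

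Among tissues with muscle coats of their own, summed markers of the ejaculatory duct and bulb ranked the arrays as the summed muscle genes did within each genotype. Those of the accessory gland did so in wild type but not in the mutant. The 5 genes of the ejaculatory duct and bulb, of which 0 were higher and 0 lower in limma, had summed levels (log2 of the summed linear values) of 15.23, 14.54 and 15.59 in wild type and 15.43, 14.55 and 15.82 in the mutant, lowest on replicate 2 and highest on replicate 3 in both genotypes. The summed levels of the 5 muscle genes were 12.82, 12.62 and 13.27 in wild type and 12.95, 12.76 and 12.98 in the mutant, in the same order. Mutant replicates 1 and 3 were close, so their order is not firm. The largest part of this sum was *Act87E*, at 11.94 to 12.19 in wild type and 12.07 to 12.18 in the mutant. The probe set of *Act87E* can match further transcripts, so the sum says less about the other muscle genes. *EbpII*, a protein gene of the ejaculatory bulb, was 5.91-fold higher on replicate 3 than on replicate 2 in wild type and 7.72-fold higher in the mutant. *Dup99B*, a peptide gene of the duct, differed 1.11-fold and 1.102-fold. In the mutant, *Dup99B* (13.74, 13.90 and 13.96) and *Gld* (10.66, 10.86 and 11.01) were lowest on replicate 1, so neither shared the order of the sum. *Ebp*, *EbpII* and *EbpIII* were lowest on replicate 2 there. *Gld*, *Ebp* and *EbpIII* were named after their values were seen. The 12 accessory gland genes had summed levels of 16.775, 16.60 and 16.85 in wild type and 16.75, 16.86 and 16.92 in the mutant, where replicate 1 was lowest, and 0 passed in limma. *Acp98AB* and *Acp36DE*, their most abundant members, had changes of 0.15 and 0.088, and *Acp32CD*, named after its value was seen, had one of 0.45 that passed in the block fit only (adjusted p = 0.048). The part of muscle from the ejaculatory bulb, or of any other muscle coat, in the replicate differences of the muscle genes was not tested.

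The genes whose levels ran closest to the median of the 5 muscle genes were *CG7970*, *Mfe2*, *Prm*, *Rtnl1* and *CAH1*. Likeness was measured as the root mean square difference, over 6 arrays, between a gene's deviations from its own mean and the median deviations of the muscle genes. It was 0.072 for *CG7970*, 0.073 for *Mfe2*, which encodes a peroxisomal enzyme, 0.091 for *Prm*, 0.093 for the reticulon gene *Rtnl1* and 0.094 for *CAH1*, a carbonic anhydrase gene. *Mlc1* itself differed from that median by 0.089, *Tm2* by 0.17, *Mlc2* by 0.22, *Act87E* by 0.26 and *up* by 0.30. The 5 genes outside the members were picked as the closest of all other kept genes. That they lay closer than most members is therefore not a result about the members. None of *CG7970*, *Mfe2*, *Prm*, *Rtnl1* and *CAH1* passed the test between genotypes (limma adjusted p between 0.800 and 0.914).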

How the data were processed

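The authors deposited log2 values from RMA on Affymetrix *Drosophila* version 2 arrays (3 *Pof* mutant, 3 wild type). The RMA version was not stated. RMA normalises probe intensities between arrays before they are summarised per probe set, which can reduce a shift shared by most genes. The probe table listed 1 gene for 13647 of 18952 probe sets, several for 402 and none for 4903, and only the first kind was used. A wild type mean of at least 6 was required, leaving 8028 probe sets, which were averaged into 7696 genes. As in the paper, mutant arrays were each shifted by a constant to the wild type mean over these genes. Testing was done with lmFit and eBayes of limma 3.58.1 in R 4.3.3, with Benjamini-Hochberg adjustment over all genes and a threshold of 0.05, and was checked on simulated data. Figures used Python 3.11.15 and matplotlib 3.10.9.

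Same-numbered arrays deviated together from their group means (correlations across genes of 0.40, 0.88 and 0.72), so the numbers were treated as pairs, although neither labels nor paper name a shared day. For mutant replicate 1 the correlation was higher with replicate 3 of wild type (0.56), and for wild type replicate 1 with replicate 3 of the mutant (0.63). The pairing of the replicate 1 arrays is thus not settled, and the block fit and the pair values rest on it. Having few arrays limits the precision, and p-values measure the spread between these replicates. Members and gene lists were chosen with earlier results of these data known. By rule, the text names every member, in each list the 2 genes with the highest wild type mean and those that passed, and the 5 genes most like the members. Alternatives varied the block, the constant, the minimum, the choice of probe set, limma's trend and robust options and the arrays included. A planned comparison of several probe sets of a member was not made, since each had 1.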

Additional observations from a re-analysis of the deposited data

How the results depend on the processing

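In all 15 alternatives, 0 of the measured muscle genes and 0 of the other kept sarcomere genes were called in limma, higher or lower. The adjusted p-values of the 5 muscle genes lay between 0.120 and 1.00 over 75 gene results, of which 61 kept their sign and 14 changed it, all of *Mlc1* or *Tm2*. *Mlc1* was -0.0017 without the constant, -0.040 without both replicate 2 arrays and between -0.16 and 0.36 when single arrays were left out. *Tm2* was -0.065 without the constant, -0.053 with a constant on the linear scale, -0.042 with no minimum, -0.016 with the minimum on the mean of all arrays, -3.5e-04 with the highest probe set of each gene, -0.15 without both replicate 2 arrays and between -0.34 and 0.37 without single arrays. *Mlc2* and *up* were below 0 and *Act87E* above 0 in all 15. The median over the 5 genes lay between -0.34 and 0.20 in the alternatives, so it has no settled sign. It moved by less than the SD of the wild type array medians (0.55). That SD is a wide measure, since it holds the replicate differences themselves, so this does not show a stable median. Over all genes the count of 361 changed genes became 885 once replicate number was a block, and lay between 137 and 403 without single arrays. The block changed the calls of *Col4a1* and *Acp32CD* among the listed genes. With 3 arrays per genotype and the replicate spread of the muscle genes, changes of the sizes inside the intervals given are not excluded. The intervals are not limits of detection, since the adjusted threshold is stricter, so a change somewhat beyond them could also have gone uncalled.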

Other observations

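Markers of further cell types were measured alongside the muscle genes. Of 7 listed genes of cyst and hub cells, 2 were kept, the transcription factor genes *so* and *eya*, with log2 changes of 0.12 and -0.021 (limma adjusted p = 0.692 and 0.965). Haemocyte genes *Pxn* and *crq* had changes of 0.30 and 0.21 and the neuronal genes *nSyb* and *brp* of 0.050 and 0.057, and none of these passed (limma adjusted p between 0.392 and 0.885). Of 4 early germline genes, 1 was kept, *aub*, a Piwi family gene, with a change of -0.57 (limma adjusted p = 0.049), a call lost without any single array. *apolpp*, the fat body gene with the highest wild type level (10.91), lies on chromosome 4, which the *Pof* protein binds. The change of *apolpp* was 0.062 (limma adjusted p = 0.805), unlike those of *Fbp2*, *Fbp1* and *Lsp2*. How far its level reports fat body alone in this mutant was not tested. The calls of *Fbp1* and *Lsp2* were lost without any array other than wild type replicate 2. That of *Fbp2* was kept without any single array (limma adjusted p between 0.015 and 0.047). *Fbp1* and *Fbp2* were below 6 on every mutant array and were kept only through wild type. That the call of *Fbp2* was kept is therefore not counted as support.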
